A study of Rattus norvegicus with 81 samples.

Results

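Methyl paraben (MPB) was set against triclosan (TCS), each given over postnatal day (PND) 1-20, through the mammary transcriptomes of rat pups at PND 21. The 9 arrays, 5 after MPB and 4 after TCS, were taken from the 81 of the series by their treatment and window labels, and no measured value entered the choice. All pups were female Sprague-Dawley rats, 1 picked at random per litter, and they took up the chemical in the milk of a dam that was gavaged every day. The vehicle group of the same window, called OIL, came from dams given olive oil and held 5 arrays. The same chemicals and vehicle given to pregnant dams on gestation day (GD) 1-20, also sampled at PND 21, gave 5 arrays per group and served as the comparison most like this one. Doses were low and had been picked in earlier work so that urinary biomarkers fell in the range seen in the US population. The sources used here state neither the dose figures nor the amount that reached a pup, so MPB and TCS are compared as given and not at a matched dose. MPB arrays were split 3 and 2 over batch labels 1 and 2, TCS arrays 3 and 1, and OIL arrays 3 and 2. RNA came from whole caudal glands, which mix ducts, fat, vessels and any lymph node taken along.

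MPB is the methyl ester of para-hydroxybenzoic acid, a preservative of foods and cosmetics that carboxylesterases hydrolyse and that binds estrogen receptors weakly. TCS is a chlorinated phenolic diphenyl ether, an antimicrobial that glucuronosyltransferases and sulfotransferases conjugate and that has been studied for effects on thyroid hormone in rats. At weaning the rat gland is a tree of growing ducts, with luminal and basal cells around a lumen, inside a fat pad that is crossed by fibroblasts and vessels and lies close to lymph nodes.

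The values were log2 expression values on Affymetrix arrays, 1 transcript cluster per gene. Correlations between the 9 arrays over all genes lay between 0.9532 and 0.9957, and pairs of 1 MPB and 1 TCS array (0.9548 to 0.9955) covered nearly the same range as pairs within MPB (0.9532 to 0.9918). Pairs within TCS covered a narrower range, 0.9787 to 0.9957. The SD over genes was 0.342 for the difference between batch means and 0.174 for the difference between MPB and TCS, or 0.122 without MPB array 1. Both SDs include the spread between single arrays. Differences were fitted with a batch term, as the plan of the comparison set. Array 1 of the MPB group stood apart. Its T and NK cell score, the mean of that list's markers after centring each gene over the 29 arrays in the fit, was -2.07, while the other 4 MPB arrays had 0.28 to 0.79 and the 4 TCS arrays 0.30 to 1.09. The B cell and lymph node score was -1.77 on that array, against 0.40 to 0.93 on the TCS arrays. In OIL, array 3 was likewise low in both scores (-1.83 and -1.81) and array 5 was high in skeletal muscle markers (2.03). Most list medians and some single genes are therefore given with and without MPB array 1. A single gene given with 1 difference only has all arrays in the fit. Markers of the labelled tissue were present in the values of all 9 arrays: Adipoq, the fat cell hormone adiponectin, ranged over 12.77 to 13.31 in MPB glands and 12.81 to 13.24 in TCS glands, and Krt18, a luminal keratin, over 8.2 to 9.11 in MPB glands and 7.65 to 8.41 in TCS glands. Krt5, Acta2 and Cnn1, which would mark basal cells, had no cluster with 1 gene symbol here and were not analysed.

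**Figure D1:**
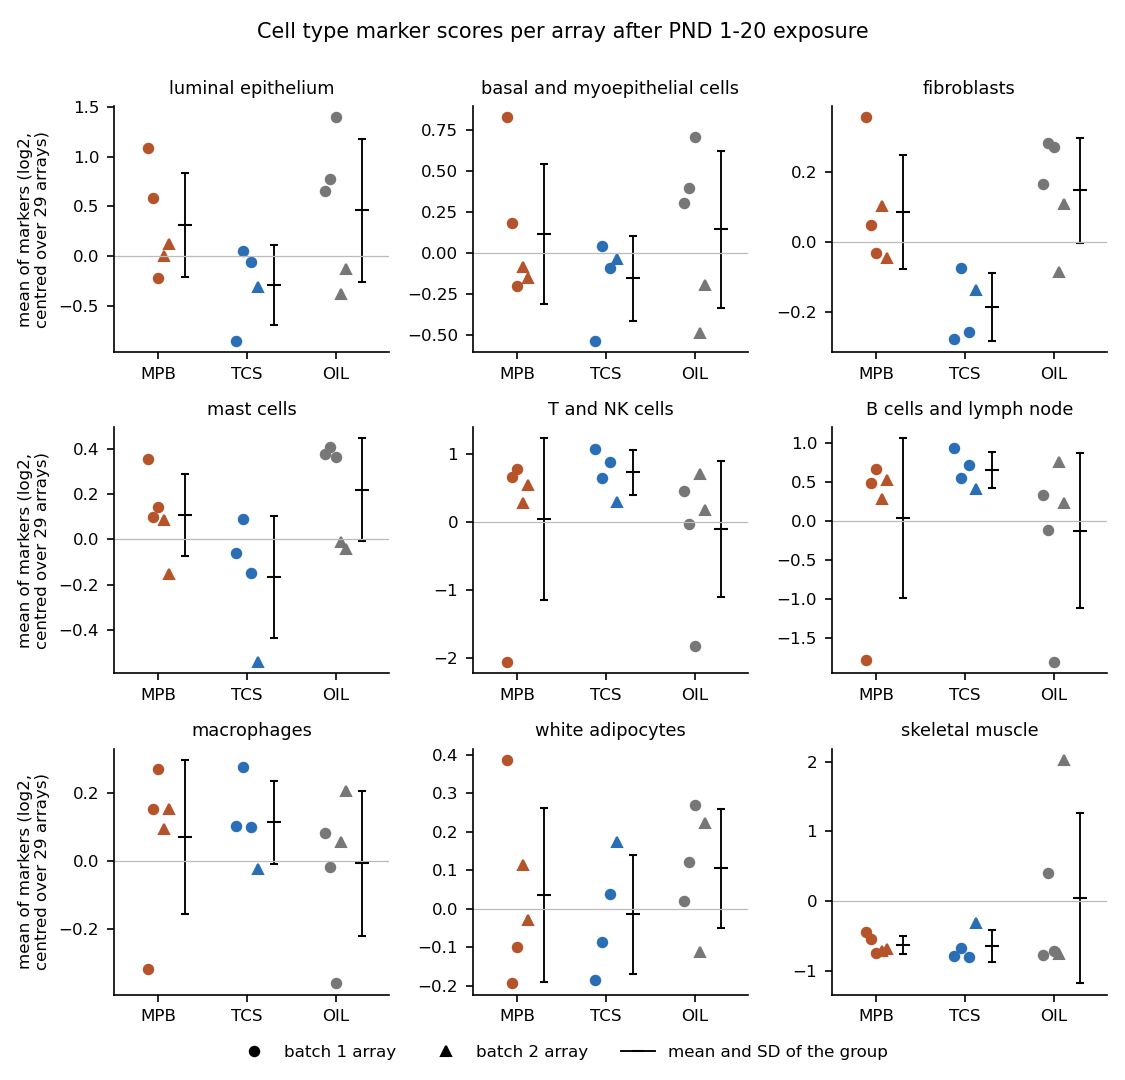
Marker scores of 9 cell type lists on each array after PND 1-20 exposure, in log2 units centred over the 29 arrays in the fit, for MPB, TCS and OIL glands; circles are batch 1 and triangles batch 2 arrays, and bars give mean and SD. One MPB array (-2.07) and one OIL array (-1.83) lie far below the others in T and NK cell markers, and luminal scores run from -0.22 to 1.09 in MPB glands and from -0.85 to 0.05 in TCS glands.

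No gene separated MPB from TCS glands at the set threshold. With limma on the 29 arrays of the 6 groups killed at PND 21, 0 of 18166 genes (0%) had a Benjamini-Hochberg adjusted p under 0.05, and the smallest adjusted p was 0.9997. An unadjusted p under 0.05 was reached by 565 genes (3.11%), of which 452 (2.49%) lay higher in MPB and 113 (0.622%) lower, where 908 would be met by a uniform spread of p-values. The same count was 1045 when only the 9 arrays entered the fit and 188 higher and 83 lower without MPB array 1, each again with 0 genes past the threshold. It was 302 in all without TCS array 1 and 1006 without MPB array 3. The median difference, MPB minus TCS, was 0.02 on the log2 scale, and 10401 genes (57.3%) lay above 0. In 164 genes (0.903%) the 5 MPB values and the 4 TCS values did not overlap, with MPB above in 132 (0.727%) and below in 32 (0.176%). The counts of genes without overlap use values before the batch term. Counts of list members given below stand against the shares of all genes in this paragraph. The members of a list were measured on the same arrays and can move together, so that 1 array can shift a whole list. Such counts are therefore not counts of separate observations. Intervals given for single genes below are those of the limma fit, not adjusted over genes, and ± marks the standard error unless SD is written.

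A missed threshold does not show that the chemicals acted alike, and the intervals set how far apart they could be. The median standard error of a gene's difference was 0.12, and the median 95% interval reached 0.26 to either side. For 13977 genes (76.9%) the whole interval lay within 0.5 of 0, a 1.41-fold difference, and for 17248 (94.9%) within 1, a 2-fold difference. The other 918 genes had intervals that reached a 2-fold difference or more. Among the 831 distinct measured members of the gene lists used below, the share with the whole interval within 0.5 was smaller, 49%. Point estimates beyond 0.5 were found for 408 genes, 142 above and 266 below, but for 41 above and 8 below once MPB array 1 was left out.

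**Figure D2:**
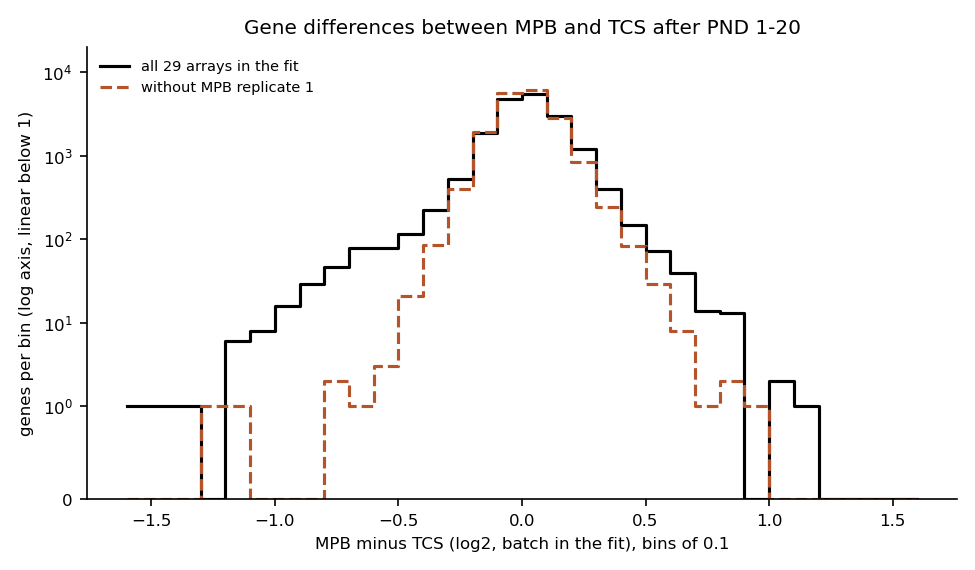
Number of genes (log axis, linear below 1) per 0.1 of the MPB minus TCS difference in log2 units, with all 29 arrays in the fit (solid) and without MPB replicate 1 (dashed). The long lower tail of the solid line, 266 genes beyond -0.5, holds 8 genes in the dashed line.

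Most of the largest estimates shrank when 1 array was left out. Of the 20 genes estimated beyond a 2-fold difference, 17 were lower and 3 higher in MPB, and without MPB array 1 only 2 stayed beyond it, Defa5 (-1.16, then -1.21) and LOC690781 (-1.20, then -1.10). Defa5, an alpha-defensin gene, stood at 5.26, 5.09, 4.86, 4.75 and 4.97 in MPB glands, against 5.69, 8.22, 4.85 and 5.99 in TCS glands. TCS array 2 was far above the other 8. LOC690781 stood at 4.26, 4.52, 4.67, 6.30 and 6.05 in MPB glands, against 5.76, 5.08, 6.01 and 7.75 in TCS glands, and its groups overlapped. Ifgga4l differed by -1.14, or -0.79 without that array, and TCS array 2 was again the highest, at 10.07. These genes and Cr2 and Glycam1 were named after their values were seen. Glycam1, a mucin-like protein of lymph node venules that also occurs in milk, stood at 6.52, 13.14, 12.82, 12.22 and 12.52 in MPB glands, against 13.28, 13.21, 13.15 and 12.32 in TCS glands. Its difference was -1.54 ± 1.49 (SE) with a 95% interval of -4.61 to 1.53, and it was -0.21 without MPB array 1. Cd3g, a chain of the T cell receptor complex, had 5.36, 10.90, 11.19, 10.53 and 10.98 in MPB glands, against 11.60, 11.04, 11.34 and 10.59 in TCS glands. On both genes the first MPB array was far below the other 8, among which MPB and TCS values overlapped. Cd3g differed by -1.40 ± 1.30 with all arrays and by -0.25 without that one. The 3 genes higher in MPB were Serpinb5, Cldn8 and Slc6a14, named here after their values were seen; the first encodes maspin, a serpin of mammary epithelial cells, the second a tight junction claudin and the third an amino acid transporter. Serpinb5 read 7.48, 6.62, 5.82, 6.33 and 6.79 in MPB glands, against 4.58, 5.93, 5.87 and 5.04 in TCS glands, a difference of 1.19 ± 0.59 (95% interval -0.02 to 2.40), or 0.91 without MPB array 1. Cldn8 read 9.09, 8.40, 7.60, 8.16 and 8.2 in MPB glands, against 6.48, 7.70, 7.76 and 6.84 in TCS glands, a difference of 1.08 ± 0.56, or 0.85 without MPB array 1. For both, MPB array 3 lay within the TCS values and the other 4 MPB arrays lay above all 4 of them. Slc6a14 differed by 1.04 ± 0.61, or 0.64 without MPB array 1.

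The genes of smallest p in each direction, 12 higher and 12 lower in MPB, are given as values with no claim of change, since none passed. Gpr45, an orphan G protein-coupled receptor, had 6.52, 6.40, 6.32, 6.31 and 6.5 in MPB glands, against 6.24, 6.20, 6.05 and 5.78 in TCS glands. No MPB value fell within the TCS values, and the difference was 0.36 ± 0.09 (95% interval 0.18 to 0.54). OIL glands, with 6.35, 6.23, 6.42, 6.16 and 6.18, overlapped both. Hoxa10, a homeobox transcription factor, followed with 5.97, 6.18, 6.04, 5.98 and 5.82 in MPB glands, against 5.64, 5.88, 5.64 and 5.61 in TCS glands. Only MPB array 5 overlapped a TCS value there, that of array 2, and the difference was 0.32 ± 0.08 (95% interval 0.15 to 0.50). C1qtnf6, a secreted C1q and tumour necrosis factor related protein, had 10.01, 9.96, 9.48, 9.68 and 9.54 in MPB glands, against 9.33, 9.59, 9.32 and 9.33 in TCS glands. One TCS array exceeded 2 MPB arrays, and the difference was 0.36 ± 0.11 (95% interval 0.14 to 0.59). Cldn10, another claudin, averaged 7.00 ± 0.23 in MPB and 6.57 ± 0.18 in TCS glands (SD, n = 5 and 4), a difference of 0.49 ± 0.15 that came to 0.50 in batch 1 and 0.46 in batch 2. Fbp1, a gluconeogenic fructose bisphosphatase, did not overlap between groups and differed by 0.28 ± 0.08. Tm4sf19, a membrane protein of the tetraspan kind, differed by 0.53 ± 0.15, and Yipf3, a Golgi protein, by 0.24 ± 0.07. The other genes higher in MPB were the olfactory receptors Or14a257c (0.61), Or2w1 (0.34) and Or4f57 (0.47), Gapdh-ps1 (0.34) and Pgr15l (0.28).

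Among those lower in MPB, Prss3bl1 had the smallest p of all genes. It stood at 4.05, 4.02, 4.19, 4.19 and 4.31 in MPB glands, against 4.79, 4.47, 4.5 and 4.58 in TCS glands. The groups did not overlap, and the difference was -0.47 ± 0.11 (95% interval -0.69 to -0.24). Atg10, an enzyme of autophagosome formation, had 7.83, 7.78, 7.97, 7.87 and 7.78 in MPB glands, against 8.04, 8.11, 8.15 and 8.14 in TCS glands. Again no value was shared, and the difference was -0.26 ± 0.07 (95% interval -0.40 to -0.12). LOC690359 had 4.74, 4.98, 4.89, 4.73 and 5.10 in MPB glands, against 5.69, 6.04, 6.66 and 4.77 in TCS glands. Its 3 TCS arrays of batch 1 lay above every MPB array and the TCS array of batch 2 lay among them, so that the overall difference of -0.86 ± 0.24 was -1.26 in batch 1 and 0.14 in batch 2. The cytokine gene Il2 averaged 4.24 ± 0.10 in MPB and 4.45 ± 0.13 in TCS glands (SD, n = 5 and 4) and differed by -0.22 ± 0.07, or -0.31 in batch 1 and 0.02 in batch 2. Gip, the gut hormone glucose-dependent insulinotropic polypeptide, differed by -0.41 ± 0.13, with TCS array 4 the highest at 7.71. Differences of -0.31 for the cardiac myosin kinase gene Mylk3, -0.45 for Tdrkh, a Tudor domain protein of the piRNA pathway, -0.28 for the gasdermin gene Gsdmc and -0.21 for Gripap1 were obtained likewise. Cd200r1l (-0.43), Fra10ac1 (-0.39) and Or51q1d (-0.45) completed the set. In all, 12 of 12 higher and 10 of 12 lower genes kept their direction in both batches, and 4 and 5 had groups that did not overlap, where 0.727% of all genes did not overlap with MPB above and 0.176% with MPB below. Both counts follow largely from the choice of genes by p on the same arrays and support nothing. For 20 of the 24 the mean over the 29 arrays was below that of the median gene.

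**Figure D3:**
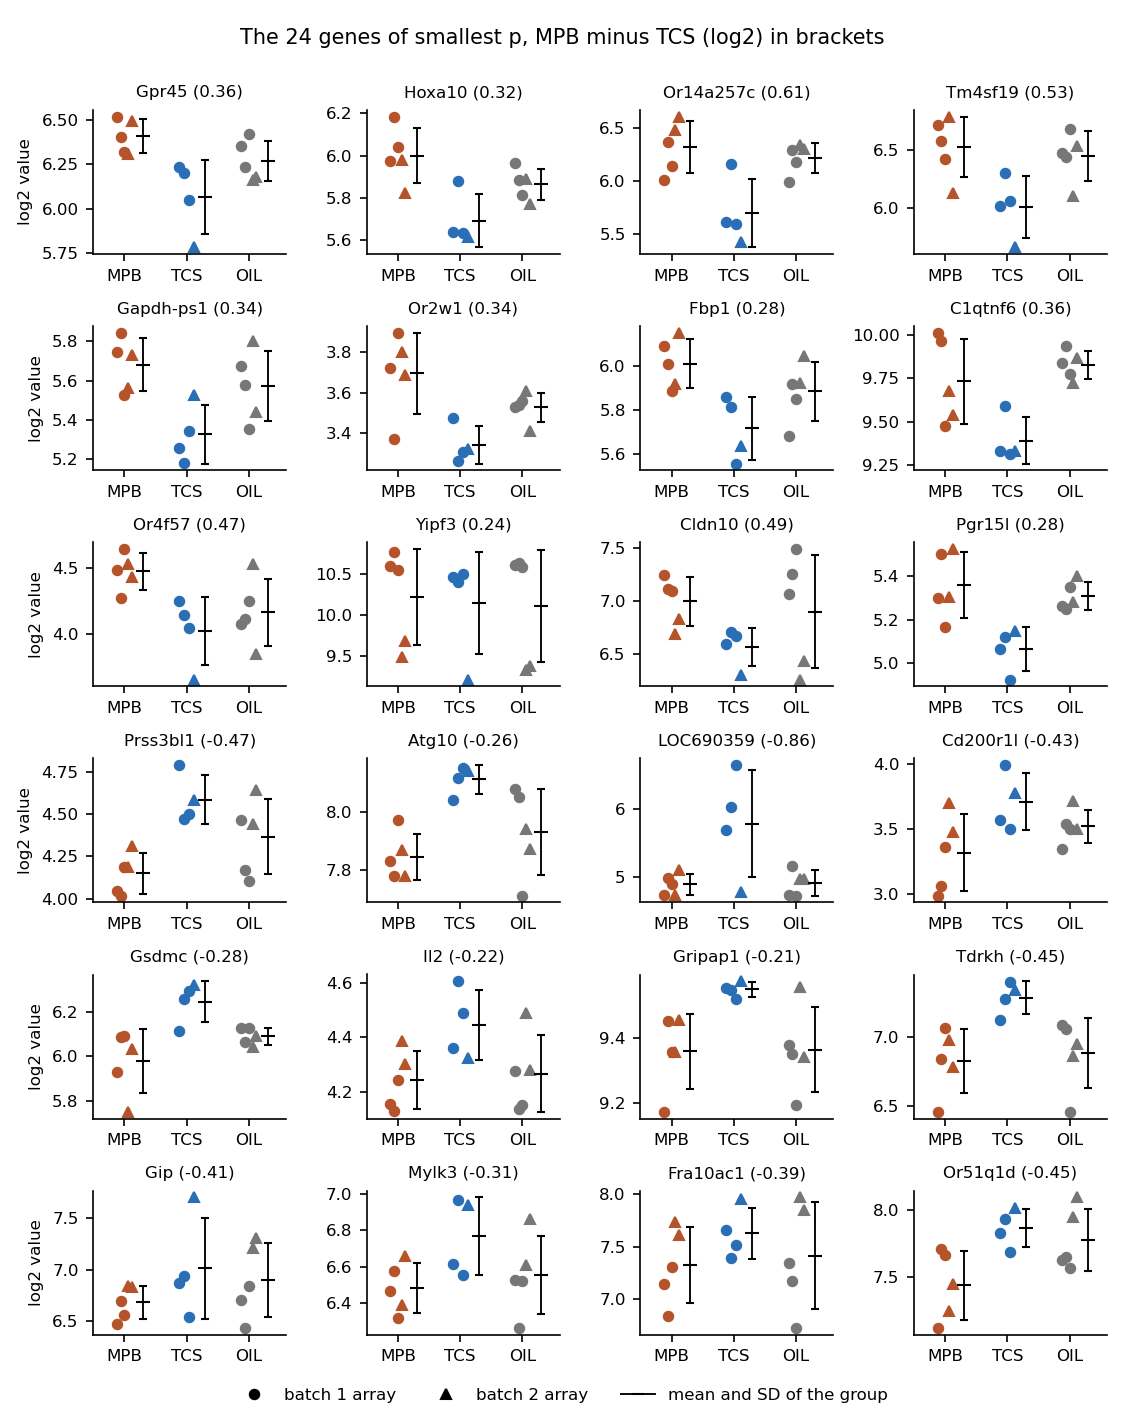
Log2 values of the 24 genes of smallest p on each MPB, TCS and OIL array after PND 1-20 exposure, with the MPB minus TCS difference in brackets; circles are batch 1 and triangles batch 2 arrays, and bars give mean and SD. Gpr45, Fbp1, Prss3bl1 and Atg10 are among the genes with no shared range between MPB and TCS, and the 3 batch 1 TCS arrays stand above all other arrays in LOC690359.

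Duct markers leaned toward MPB. All 20 measured genes of luminal epithelium lay higher in MPB than in TCS, with a median difference of 0.63 beside 0.02 over all genes, yet 0 passed the threshold and 1 had an unadjusted p under 0.05. Over all genes 57.3% lay higher in MPB, and 2.49% were higher with an unadjusted p under 0.05. Krt8, a keratin of the luminal layer, had 8.98, 8.91, 7.85, 7.58 and 7.60 in MPB glands, against 7.22, 8.08, 8.0 and 7.48 in TCS glands. The first 2 MPB arrays were high and the other 3 fell within the TCS range, and the difference was 0.58 ± 0.39 (95% interval -0.22 to 1.39). Krt18, its partner keratin, had 9.11, 8.87, 8.2, 8.99 and 9.08 in MPB glands, against 7.65, 8.21, 8.41 and 8.38 in TCS glands. Here 4 of 5 MPB arrays exceeded every TCS array, and the difference of 0.62 ± 0.41 was 0.64 in batch 1 and 0.66 in batch 2. Cdh1, the adhesion protein E-cadherin, differed by 0.72 ± 0.50, the tight junction gene Cldn3 by 0.68 ± 0.47, the protease inhibitor gene Spint2 by 0.37 ± 0.30 and Gata3, a luminal transcription factor, by 0.31 ± 0.46. Elf3, an epithelial ETS factor and the member with the unadjusted p under 0.05, had 7.34, 7.12, 6.45, 6.61 and 6.82 in MPB glands, against 5.73, 6.52, 6.24 and 6.31 in TCS glands and differed by 0.67 ± 0.24 (95% interval 0.16 to 1.17). The list median was 0.81 in batch 1 and 0.41 in batch 2, and 0.42 without MPB array 1, when 20 of 20 members still lay higher. Over the 9 arrays left out in turn it ran from 0.42 to 0.76. Luminal scores were 1.09, 0.58, -0.22, -0.0015 and 0.12 in MPB glands, against -0.85, 0.05, -0.05 and -0.31 in TCS glands. MPB array 1 had the highest and TCS array 1 the lowest score of the 9, and the other arrays of the groups overlapped. Leaving out 1 array at a time never took out both of these arrays, so that range does not show a stable group difference. In a whole gland fewer epithelial cells and less RNA per cell cannot be told apart.

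Basal and myoepithelial markers, the contractile outer layer, had a median difference of 0.31. In MPB 9 of 9 measured members were higher, beside 57.3% of all genes, and none passed the threshold. Krt14 had 8.88, 8.15, 7.32, 7.76 and 7.60 in MPB glands, against 6.71, 7.88, 7.45 and 7.72 in TCS glands. Its groups overlapped on 3 MPB arrays, and the difference was 0.53 ± 0.38 (95% interval -0.25 to 1.31). The smooth muscle genes Tagln (0.02 ± 0.11), Myh11 (0.14 ± 0.17) and Mylk (0.11 ± 0.11), which vessels also express, and the keratin gene Krt17 (0.43 ± 0.37) were the members of highest mean. The list median was 0.43 in batch 1 and -0.04 in batch 2, and 0.17 without MPB array 1. Skin keratinocyte markers, which would mark adhering skin, had a median of 0.08 (0.12 without that array) and scores of -0.07 to 0.16 in MPB and -0.23 to 0.03 in TCS glands. Their part in the duct marker difference was not tested.

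Genes of growth and duct branching had smaller medians. The 22 measured genes of epidermal, fibroblast and hepatocyte growth factor signalling had a median of 0.21 (0.15 without MPB array 1). Of these 20 were higher in MPB, beside 57.3% of all genes. Only 1, the receptor gene Egfr, had an unadjusted p under 0.05, beside 2.49% of all genes in that direction. Egfr had 9.94, 9.59, 9.5, 9.69 and 9.5 in MPB glands, against 8.89, 9.56, 9.22 and 9.37 in TCS glands, a difference of 0.38 ± 0.16 (95% interval 0.06 to 0.70). MPB arrays 3 and 5 lay below the highest TCS array, and the other 3 above it. Fgfr1, a fibroblast growth factor receptor, differed by 0.20 ± 0.15, its stromal ligand gene Fgf7 by 0.06 ± 0.14, the ligand-shedding protease gene Adam17 by -0.02 ± 0.09 and the feedback inhibitor gene Spry1 by 0.22 ± 0.13. In the Wnt, Notch and hedgehog list 24 of 28 lay higher (57.3% of all genes), 4 with an unadjusted p under 0.05 (2.49% of all genes in that direction), and the median was 0.14, or 0.06 without that array. The Wnt co-receptor genes Lrp6 and Lrp5 differed by 0.14 ± 0.10 and 0.23 ± 0.14, and the Notch receptor and ligand genes Notch2 and Jag1 by 0.03 ± 0.08 and 0.13 ± 0.13. The 4 members with an unadjusted p under 0.05, named for it after their values were seen, were the ligand genes Wnt5b (0.34 ± 0.12), Wnt10a (0.27 ± 0.11) and Wnt2 (0.48 ± 0.19) and the hedgehog effector gene Gli1 (0.36 ± 0.15). MPB and TCS values of Wnt10a and Gli1 did not overlap, as for 0.727% of all genes with MPB above. Cell cycle genes had a median of 0.08 with 25 of 28 higher, but 0.17 without MPB array 1 and -0.002 without MPB array 2, the proliferation marker Mki67 differing by 0.06 ± 0.44 and Pcna, the DNA polymerase clamp, by 0.07 ± 0.25.

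Lymphocyte markers leaned toward TCS, and 1 MPB array held most of the difference. T and NK cell markers had a median difference of -0.78, 15 of 17 being lower in MPB, and B cell and lymph node markers -0.69, with 14 of 14 lower. None passed the threshold or had an unadjusted p under 0.05. Cd3e, a T cell receptor chain, had 6.91, 10.48, 10.37, 9.43 and 9.92 in MPB glands, against 10.77, 9.98, 10.55 and 9.62 in TCS glands. Without array 1 the MPB values lay within or just below those of TCS, and the difference of -0.78 ± 0.80 became -0.08. Cd79a, a B cell receptor chain, had 7.48, 9.71, 9.54, 8.94 and 9.31 in MPB glands, against 9.84, 9.57, 9.60 and 9.20 in TCS glands, and its difference of -0.55 ± 0.55 became -0.13. Tcf7, Lck and Cd4, T cell genes, differed by -0.78, -0.93 and -0.38 with all arrays and by -0.23, -0.24 and -0.04 without that one. Cd79b and Cd37 of B cells differed by -0.71 and -0.78, then by -0.12 and -0.11. Cxcl13, the chemokine that draws B cells to follicles, differed by -0.19 ± 0.34. Cr2, a complement receptor of B and follicular dendritic cells, differed by -1.16 ± 1.02, or by -0.39 without MPB array 1. The list medians without MPB array 1 were -0.17 for T and NK cells and -0.13 for B cells. In batch 2, which lacks that array, they were 0.15 and -0.0009, and in batch 1 they were -1.18 and -1.01.

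Antigen presentation genes lay lower in MPB with the same array. All 17 measured members were lower in MPB with a median of -0.38, which was -0.04 without MPB array 1. Cd74, the class II invariant chain, had 11.90, 13.40, 13.38, 12.92 and 13.09 in MPB glands, against 13.47, 13.39, 13.40 and 13.04 in TCS glands. MPB array 1 was the lowest of the 9, and the other MPB arrays overlapped TCS. B2m, the light chain of class I molecules, differed by -0.06 ± 0.17 and the class II gene RT1-Da by -0.41 ± 0.59. Of 30 chemokine and inflammation genes 24 were lower, with a median of -0.20 (-0.09 without that array). Ccl19, a chemokine of lymph node stroma, differed by -1.10 ± 1.06, or by -0.23 without that array. Ccl21, its relative in lymphatic vessels, differed by -0.63 ± 0.70, then by -0.09. Plasma cell markers had a median of -0.12 (-0.04 without that array), the antibody joining chain gene Jchain differing by -1.04 ± 1.04 (-0.28 without that array). Macrophage markers had a median of -0.09, which changed sign to 0.04 without that array (8 of 14 higher), with Lyz2, lysozyme, at -0.65 and then -0.10, and the receptor gene Csf1r at -0.14 ± 0.31. Interferon response genes had a median of -0.07, or -0.07 without it.

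Mast cell markers lay toward MPB. Of 9 measured members 8 were higher, 2 had an unadjusted p under 0.05, against 57.3% of all genes above 0 and 2.49% at that p in that direction, none passed, and the median was 0.41. The 1 member lower in MPB differed by -0.52. Cpa3, mast cell carboxypeptidase, had 11.34, 10.61, 10.99, 11.29 and 10.98 in MPB glands, against 10.36, 10.63, 10.41 and 9.58 in TCS glands. MPB array 2 shared the range of TCS and the other 4 lay above it, and the difference was 0.82 ± 0.45 (95% interval -0.11 to 1.74). Tpsab1, a tryptase, had 9.37, 9.59, 9.32, 8.79 and 8.59 in MPB glands, against 8.74, 9.09, 8.83 and 8.19 in TCS glands and differed by 0.51 ± 0.20 (95% interval 0.10 to 0.92). The other such member was Hdc, which makes histamine, at 0.36 ± 0.15. Kit, the stem cell factor receptor that epithelial cells also carry, differed by 0.41 ± 0.25, and the tryptase gene Tpsb2, closely related to Tpsab1 so that probes may share signal, by 0.47 ± 0.28. The list median was 0.38 in batch 1 and 0.49 in batch 2, and 0.33 without MPB array 1, when 7 of 9 members lay higher. The batch 2 value rests on 1 TCS array, array 4, which had the lowest mast cell score of the 9 arrays, -0.54.

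Stromal genes lay higher in MPB by small amounts. All 15 measured fibroblast markers had a positive difference with a median of 0.26; 4 of them had an unadjusted p under 0.05, against 2.49% of all genes in that direction, and 3 had MPB values above all TCS values, against 0.727%. The members of highest mean were Sparc, a collagen-binding matricellular protein, at 0.10 ± 0.09, the collagen gene Col1a1 at 0.21 ± 0.12, Dpt at 0.19 ± 0.09 and the proteoglycan gene Dcn at 0.18 ± 0.16. Postn, periostin, chosen after its values were seen, had 12.94, 12.70, 12.63, 12.88 and 12.78 in MPB glands, against 12.41, 12.60, 12.45 and 12.57 in TCS glands. Thy1, a surface marker of fibroblasts that T cells share, had 10.20, 10.25, 9.86, 9.85 and 9.82 in MPB glands, against 9.67, 9.67, 9.65 and 9.81 in TCS glands. The groups shared no range on either gene, and they differed by 0.27 ± 0.12 (95% interval 0.03 to 0.51) and 0.31 ± 0.10 (95% interval 0.09 to 0.52). The other 2 such fibroblast genes were Mfap5, a microfibril protein, at 0.59 ± 0.26 and the collagen gene Col3a1 at 0.22 ± 0.11. The list median was 0.31 in batch 1 and 0.16 in batch 2, and 0.19 without MPB array 1. Matrix and crosslinking genes had a median of 0.20 with 21 of 22 higher and 6 with an unadjusted p under 0.05, beside the same 57.3% and 2.49% of all genes. Bgn and Ogn, small proteoglycans, differed by 0.13 ± 0.09 and 0.20 ± 0.16, the calcification inhibitor gene Mgp by 0.12 ± 0.12 and fibronectin, Fn1, by 0.34 ± 0.13 (95% interval 0.07 to 0.61). Besides Fn1 the members under that p, seen before they were named, were the lysyl oxidase-like crosslinkers Loxl1 (0.38 ± 0.15) and Loxl2 (0.38 ± 0.17), the fibrillin gene Fbn1 (0.41 ± 0.19), Col14a1 (0.42 ± 0.20) and Col6a2 (0.28 ± 0.12). Metalloproteinases and inhibitors had a median of 0.20, with the gelatinase gene Mmp2 at 0.39 ± 0.18, the membrane collagenase gene Mmp14 at 0.38 ± 0.17 and the inhibitors Timp2 and Timp3 at 0.20 ± 0.12 and 0.12 ± 0.16. Medians without MPB array 1 were 0.15 for matrix and 0.13 for metalloproteinase genes.

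Fat and muscle lists had medians close to that of all genes. White adipocyte markers had a median difference of 0.07 (13 of 19 higher), and -0.004 without MPB array 1. Fabp4, a fatty acid carrier, differed by -0.02 ± 0.15, the lipases of uptake and release Lpl and Pnpla2 by 0.09 ± 0.13 and 0.13 ± 0.17, and Adipoq by 0.08 ± 0.14 (95% interval -0.22 to 0.38). Lists of fatty acid synthesis (0.06), fatty acid oxidation (0.06) and cholesterol synthesis (0.01) had medians near 0, and without MPB array 1 they were 0.005, 0.04 and -0.05. Skeletal muscle scores were -0.74 to -0.44 in MPB and -0.80 to -0.31 in TCS glands. The median of the muscle list was 0.01, or -0.03 without MPB array 1, although its intervals were wide, -2.0 to 2.43 for the actin gene Acta1.

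Hormone receptor and hormone response genes were examined because both chemicals have been studied as endocrine disruptors. Of 21 measured steroid and nuclear receptor genes 14 lay higher in MPB, 3 with an unadjusted p under 0.05, against 2.49% of all genes in that direction, and the median was 0.05, or 0.03 without MPB array 1. Esr1, the estrogen receptor alpha gene, had 10.07, 9.58, 9.27, 8.58 and 9.05 in MPB glands, against 9.0, 9.23, 9.23 and 9.14 in TCS glands. MPB values spread on both sides of TCS values, and the difference of 0.23 ± 0.23 (95% interval -0.24 to 0.70) was 0.49 in batch 1 and -0.33 in batch 2. The members of highest mean were the glucocorticoid receptor gene Nr3c1 (0.11 ± 0.11), the retinoid X receptor gene Rxra (0.06 ± 0.08), the liver X receptor gene Nr1h3 (-0.09 ± 0.14) and Ahr, the dioxin receptor gene (-0.07 ± 0.16). Pgr, the progesterone receptor and a known estrogen target, was picked, like Esr1, after its values were seen and had 6.79, 6.51, 5.71, 6.39 and 6.27 in MPB glands, against 5.86, 5.70, 5.74 and 5.66 in TCS glands. For Pgr 4 of 5 MPB arrays lay above all TCS arrays, and the difference was 0.60 ± 0.26 (95% interval 0.05 to 1.15), or 0.48 without MPB array 1. Vdr, the vitamin D receptor gene, was another of the 3 receptor genes under that p and differed by 0.52 ± 0.24. Pgr averaged 6.33 ± 0.40 in MPB (SD, n = 5), 5.74 ± 0.09 in TCS (n = 4) and 6.70 ± 0.70 in OIL glands (n = 5).

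The estrogen response list had 17 of 18 members higher in MPB, beside 57.3% of all genes, and a median of 0.17. Among its members 1, Pgr, had an unadjusted p under 0.05, beside 2.49% of all genes in that direction. Its members of highest mean were Xbp1 (0.16 ± 0.13), a secretory transcription factor, Igfbp5 (0.25 ± 0.23), an IGF-binding protein, the lysosomal protease gene Ctsd (0.16 ± 0.10) and the small GTPase gene Rasd1 (0.09 ± 0.29). The median was 0.25 in batch 1 and 0.04 in batch 2, and 0.13 without MPB array 1. Steroid metabolism genes had a median of 0.08, which was 0.02 without MPB array 1 (12 of 18 higher) and -0.07 in batch 2; the 17-beta dehydrogenase genes Hsd17b11, Hsd17b12, Hsd17b4 and Hsd17b10 differed by 0.22 ± 0.12, 0.03 ± 0.23, 0.18 ± 0.10 and -0.02 ± 0.07. Akr1c14, the rat 3-alpha-hydroxysteroid dehydrogenase, was its only member with an unadjusted p under 0.05 and had 10.47, 9.21, 9.39, 10.34 and 9.69 in MPB glands, against 8.84, 9.44, 9.07 and 9.46 in TCS glands, a difference of 0.59 ± 0.27 (95% interval 0.03 to 1.16). The groups overlapped on MPB arrays 2 and 3. Glucocorticoid response genes had a median of 0.06, or 0.16 without MPB array 1, and 0 members with an unadjusted p under 0.05, beside 3.11% of all genes.

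Milk and prolactin genes spread widely between arrays. The 20 milk and secretory genes had a median of 0.15 (0.09 without MPB array 1), 18 higher in MPB. Csn1s1, alpha-S1 casein, had 12.69, 12.29, 12.12, 11.75 and 12.03 in MPB glands, against 11.69, 12.42, 12.30 and 11.65 in TCS glands. Lalba, the milk whey protein alpha-lactalbumin, had 12.47, 12.10, 11.30, 10.63 and 10.66 in MPB glands, against 10.47, 11.84, 11.49 and 10.18 in TCS glands. Both groups overlapped on both genes, with differences of 0.14 ± 0.85 and 0.50 ± 0.95 whose 95% intervals, -1.61 to 1.88 and -1.44 to 2.45, were wide enough to hold a 2-fold difference either way. Mfge8, the milk fat globule protein lactadherin, differed by 0.08 ± 0.20. Glycam1, also on this list, followed the lymphocyte markers given above. The prolactin and STAT5 list had a median of 0.02, or 0.04 without that array, with the growth hormone receptor gene Ghr at 0.25 ± 0.25 and Stat5b, its signal transducer, at 0.02 ± 0.07 (95% interval -0.13 to 0.17).

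Genes known to handle parabens or phenols were examined next. None passed the threshold, as for all 18166 genes, so this outcome is not particular to them. Carboxylesterases and related esterases, the class that hydrolyses parabens, had a median of 0.06 (0.06 without MPB array 1) over 16 measured of 20 listed. This list had 0 members at an unadjusted p under 0.05, beside 3.11% of all genes, and with so few members a count of 0 says little. The members of highest mean were the paraoxonase gene Pon2 (0.03 ± 0.14, 95% interval -0.26 to 0.32), butyrylcholinesterase, Bche (0.24 ± 0.23), the carboxylesterase gene Ces2g (0.01 ± 0.20) and Pon3 (0.07 ± 0.29). Ces2g had 8.85, 7.75, 7.95, 7.79 and 7.84 in MPB glands, against 7.89, 7.75, 8.19 and 8.31 in TCS glands, MPB array 1 being the highest. Conjugation and export genes had a median of 0.07, or 0.05 without that array. With all arrays 21 of 29 were higher, beside 57.3% of all genes. An unadjusted p under 0.05 was reached by 2, beside 2.49% of all genes in that direction. Sult1a1, a phenol sulfotransferase, had 11.96, 11.63, 11.95, 12.09 and 11.54 in MPB glands, against 11.47, 11.81, 11.54 and 11.53 in TCS glands, with overlap, and differed by 0.27 ± 0.22 (95% interval -0.18 to 0.73). The glutathione transferase genes Mgst1, Gstt2 and Gsto1 differed by 0.07 ± 0.15, 0.26 ± 0.22 and 0.04 ± 0.08. Abcg2, an export pump of the mammary luminal membrane, and Gstm5, another glutathione transferase gene, were picked after their values were seen and differed by 0.43 ± 0.18 and 0.44 ± 0.21 (95% intervals 0.06 to 0.80 and 0.01 to 0.86). Phase I enzymes had a median of 0.06 (0.08 without that array) and 0 members at an unadjusted p under 0.05, beside 3.11% of all genes. The epoxide hydrolase gene Ephx1 differed by 0.32 ± 0.20 and the monooxygenases Fmo1 and Fmo2 by 0.09 ± 0.27 and 0.34 ± 0.39. Por, the electron donor of cytochromes P450, differed by 0.13 ± 0.15. Ugt1a1, Ugt1a6 and Ugt1a7c, glucuronosyltransferase genes on the list, were not analysed here for want of a cluster with 1 symbol.

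Thyroid hormone genes had a median of 0.09 with 10 of 15 higher in MPB. Thrsp, a lipogenic gene that thyroid hormone induces in rats, had 12.46, 12.20, 11.89, 13.02 and 12.85 in MPB glands, against 11.74, 11.95, 12.20 and 12.94 in TCS glands. The 3 arrays of batch 2 were the highest of the 9, and the difference was 0.19 ± 0.20 (95% interval -0.22 to 0.60). The receptor genes Thra and Thrb, chosen outside the rule on highest means, differed by 0.17 ± 0.15 and 0.10 ± 0.16. The hormone-induced factor gene Klf9 differed by 0.21 ± 0.24, the corepressor gene Ncor1 by -0.11 ± 0.08 and the mediator gene Med1 by -0.17 ± 0.09. Hr, the hairless corepressor gene, was the member with an unadjusted p under 0.05 and differed by 0.32 ± 0.15. The list median was 0.01 without MPB array 1.

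Among retinoid genes was Stra6, which had the smallest p of TCS against OIL. Of 19 measured genes 15 lay higher in MPB, 3 with an unadjusted p under 0.05 (2.49% of all genes in that direction), and the median was 0.17 (0.09 without MPB array 1). Stra6, the cell surface receptor for retinol-binding protein, chosen after its values were seen, had 8.25, 8.34, 7.41, 7.51 and 7.48 in MPB glands, against 7.16, 7.33, 7.40 and 7.05 in TCS glands. Every MPB value lay above every TCS value, arrays 3 to 5 only just, and the difference was 0.64 ± 0.23 (95% interval 0.16 to 1.11). OIL arrays had 8.75, 8.82, 8.86, 7.23 and 7.71, high in batch 1 and lower in batch 2. The other 2 were Aldh1a3, which makes retinoic acid, at 0.28 ± 0.10 and the alcohol dehydrogenase gene Adh1c at 0.32 ± 0.15. Rbp4, the retinol carrier, differed by -0.10 ± 0.19, the transglutaminase gene Tgm2 by 0.11 ± 0.10, the chemerin gene Rarres2 by -0.08 ± 0.17 and the retinal reductase gene Dhrs3 by 0.20 ± 0.14. The retinoic acid receptor gene Rarg, on the receptor list, differed by 0.31 ± 0.10 (95% interval 0.10 to 0.52).

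**Figure D4:**
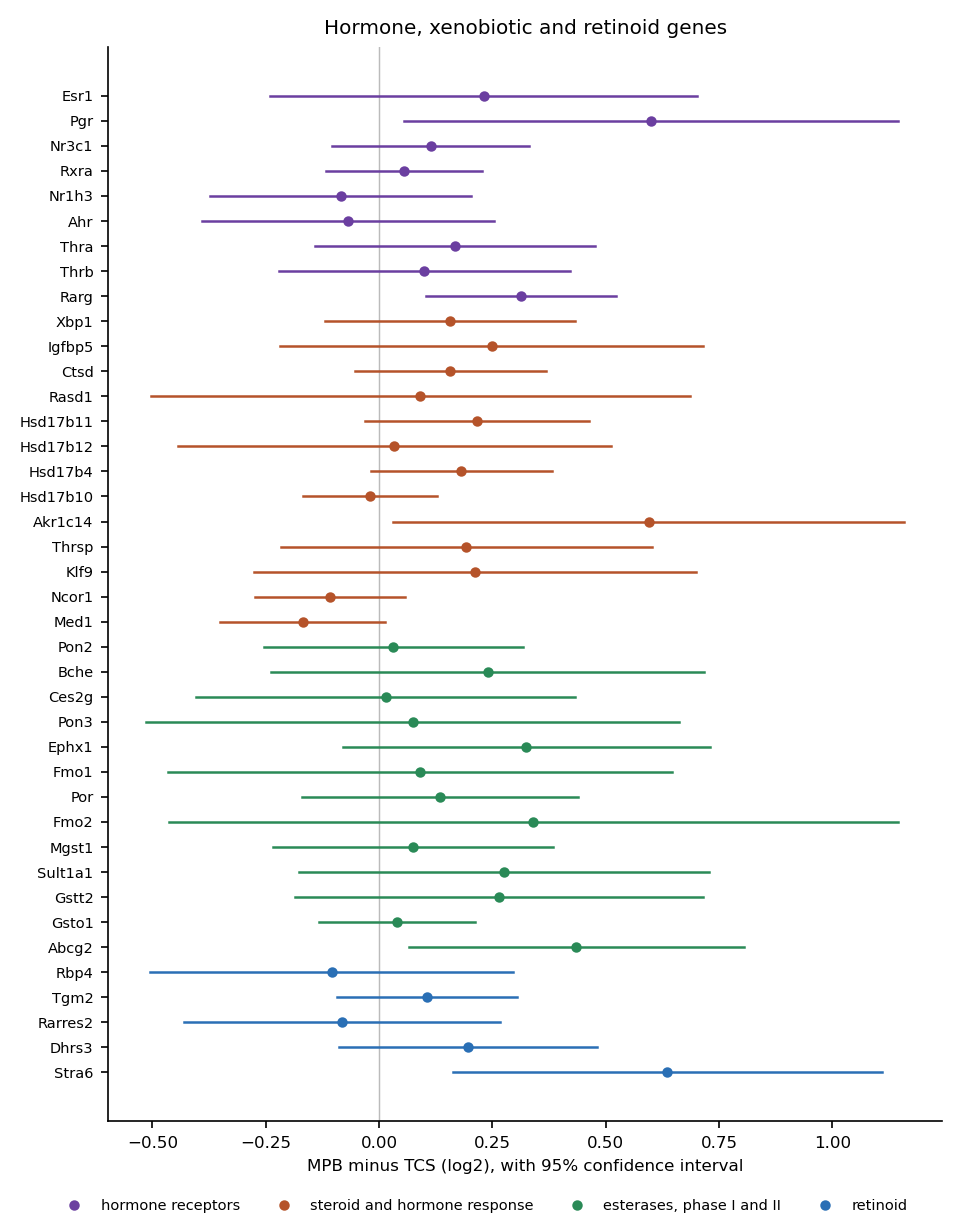
Difference MPB minus TCS in log2 units with its 95% confidence interval for 40 genes of hormone receptors, hormone response, xenobiotic handling and retinoid metabolism. Most intervals cross 0; those of Pgr, Rarg, Akr1c14, Abcg2 and Stra6 lie above it before adjustment over all genes.

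Over the 51 lists, 40 had a median above 0 and 11 below, and 10 had a median beyond 0.2 in either direction, against 2 lists once MPB array 1 was left out. The median of 7 lists changed sign without it. Among 831 distinct measured members 35 (4.21%) had an unadjusted p under 0.05, all 35 higher in MPB. Over all genes 3.11% had such a p, 2.49% higher and 0.622% lower in MPB. Housekeeping processes had medians near 0: oxidative phosphorylation -0.02, heat shock chaperones -0.04, endoplasmic reticulum stress -0.003, oxidative stress 0.04, DNA methylation and chromatin enzymes 0.003, and calcium handling 0.002. Imprinted growth genes (0.18) and circadian clock genes (0.17) had medians near that of the estrogen response list, and 0.11 and 0.13 without MPB array 1.

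Both chemicals were also set against OIL, and the comparisons share the OIL arrays. MPB minus OIL gave 0 of 18166 genes (0%) past the threshold and 302 (1.66%) with an unadjusted p under 0.05, 194 higher (1.07%) and 108 lower (0.595%) in MPB. TCS minus OIL gave 0 (0%) and 1133 (6.24%), 305 higher (1.68%) and 828 lower (4.56%) in TCS. That total was 564 without OIL array 3 and 547 without TCS array 1. Stra6 had the smallest p in TCS minus OIL, -1.11 ± 0.23 with an adjusted p of 0.756, beside -0.48 ± 0.22 in MPB minus OIL. The adjusted p of Stra6 was below the threshold without OIL array 4 (0.0391) and with array weights (0.0058), when 138 genes passed. The luminal list median was -0.15 in MPB minus OIL and -0.78 in TCS minus OIL, and without OIL array 3, the one poor in lymphocyte and rich in duct markers, 0.09 and -0.50. T and NK cell medians were 0.17 for MPB and 0.95 for TCS, and -0.31 and 0.45 without that OIL array. Fibroblast medians were -0.07 and -0.35, and mast cell medians -0.11 and -0.53. In TCS minus OIL, 11 of 15 fibroblast, 6 of 9 mast cell and 6 of 18 estrogen response members had an unadjusted p under 0.05. In MPB minus OIL each of these lists had 0 such members. Over all genes the shares were 6.24% and 1.66%. Without MPB array 1 the MPB minus OIL medians were -0.34 for luminal and 0.75 for T and NK cell markers. Estrogen response medians were -0.05 and -0.21. Skeletal muscle medians, -0.58 and -0.64, went with the muscle-rich OIL array 5 and were -0.15 and -0.10 without it. Of the 12 genes of smallest p that were higher in MPB than TCS, 11 had a positive MPB minus OIL and 0 a positive TCS minus OIL difference, a choice made on the same MPB and TCS arrays.

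**Figure D5:**
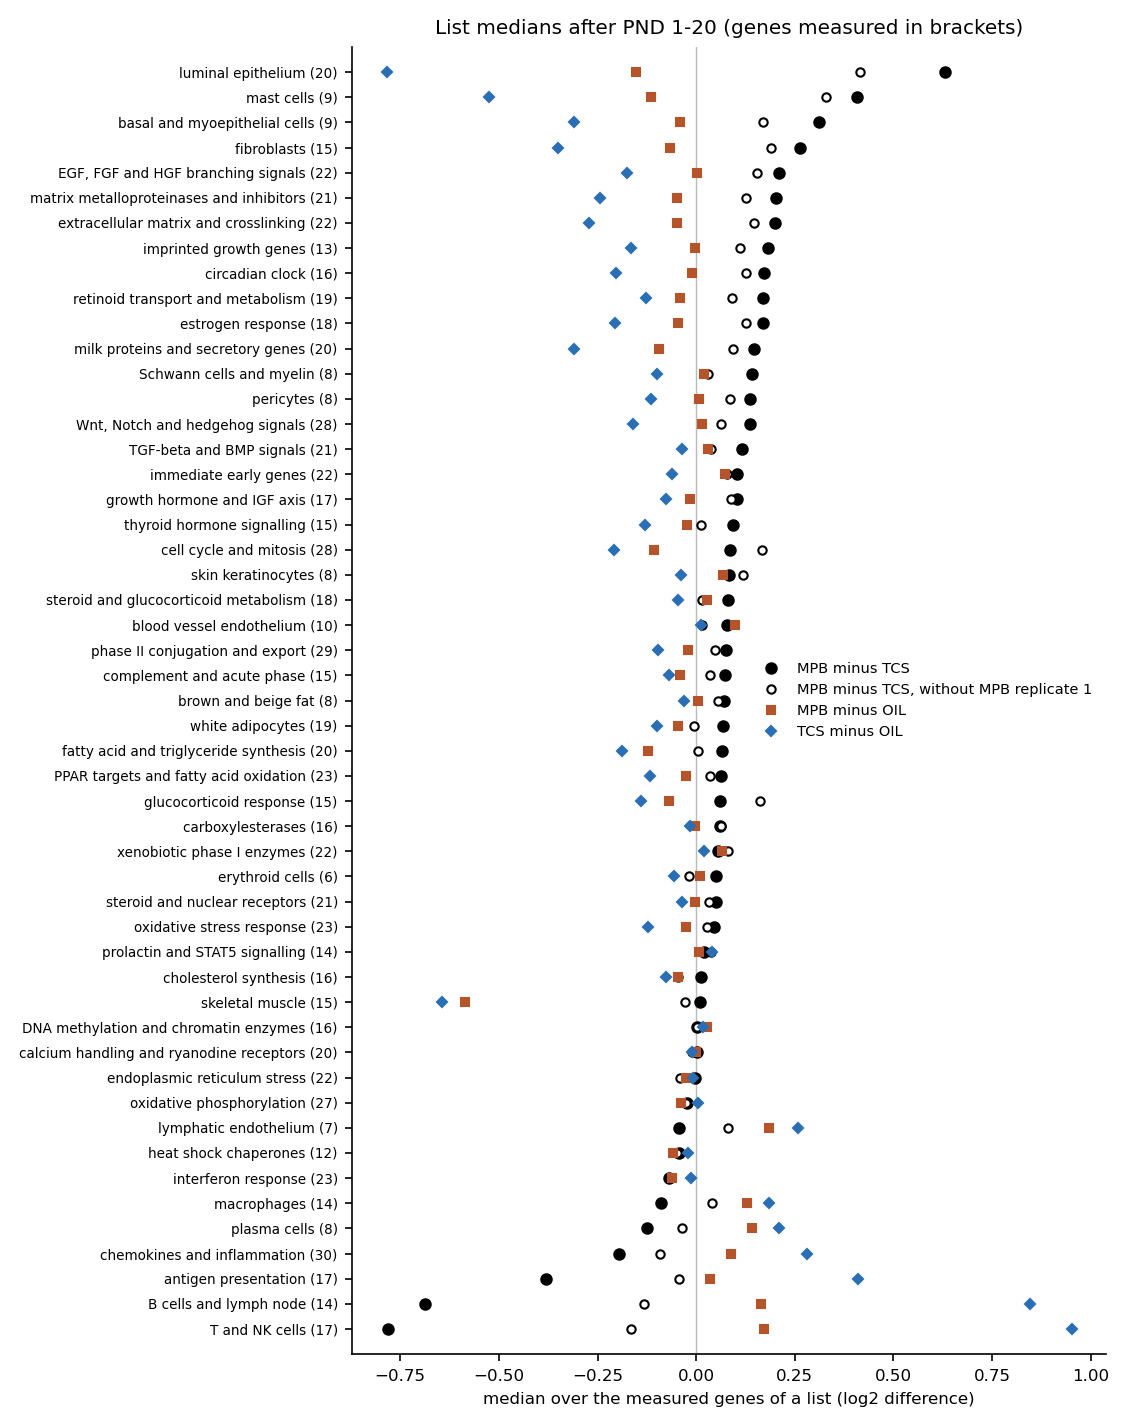
Median log2 difference over the measured genes of each of the 51 lists after PND 1-20 exposure, for MPB minus TCS with all arrays (filled circles) and without MPB replicate 1 (open circles), MPB minus OIL (squares) and TCS minus OIL (diamonds), which share the OIL arrays. Luminal epithelium has the highest MPB minus TCS median (0.63) and T and NK cells the lowest (-0.78), and the open circle of T and NK cells lies at -0.17.

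After exposure on GD 1-20, the same pair of chemicals gave 0 of 18166 genes (0%) past the threshold and 772 (4.25%) with an unadjusted p under 0.05, 465 higher (2.56%) and 307 lower (1.69%) in MPB. Several of those glands stood apart. Their T and NK cell scores were -2.23, -0.27, -1.99, 0.61 and 0.63 in MPB, against 0.73, 0.89, 0.83, 0.46 and -2.01 in TCS, and their luminal scores -1.45, 0.28, -1.28, -0.21 and 0.35 in MPB, against 0.10, 0.10, 0.02, 0.49 and -0.73 in TCS. MPB arrays 1 and 3 and TCS array 5 were low in both. Muscle scores ran from -0.75 to 4.73 in MPB and from -0.75 to 4.36 in TCS. In batch 1 alone 2769 genes passed, where the 3 MPB arrays had muscle scores of 4.73, 3.28 and 0.61 and the 3 TCS arrays -0.69, -0.73 and -0.54. The difference between windows, MPB minus TCS after PND 1-20 less that after GD 1-20, was tested by limma as an interaction and passed for 0 genes (0%), with 422 (2.32%) at an unadjusted p under 0.05, 309 above 0 (1.7%) and 113 below (0.622%). Luminal medians were 0.63 after PND 1-20 and -0.49 after GD 1-20, a median interaction of 1.03, with 3 of 20 members at an unadjusted p under 0.05. Krt18 differed by 0.62 ± 0.41 after PND 1-20 and -0.46 ± 0.39 after GD 1-20 (interaction 1.08 ± 0.56, 95% interval -0.08 to 2.24). Medians of T and NK cell markers were -0.78 after PND 1-20 and -0.87 after GD 1-20. In a fit chosen after seeing the data, which left out the 5 arrays with a T and NK cell score under -1.5 (MPB array 1 and OIL array 3 after PND 1-20, MPB arrays 1 and 3 and TCS array 5 after GD 1-20), the luminal medians were 0.42 after PND 1-20 and -0.02 after GD 1-20, with a median interaction of 0.50. T and NK cell medians were -0.11 and -0.30 in the same fit, and the Krt18 interaction was 0.48. Stra6 differed by 0.64 ± 0.23 and -0.33 ± 0.22 (interaction 0.97 ± 0.32, 95% interval 0.32 to 1.62), and without those 5 arrays by an interaction of 0.66 (95% interval -0.02 to 1.35). Gpr45 differed by 0.36 ± 0.09 after PND 1-20 and -0.03 ± 0.08 after GD 1-20.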

How the data were processed

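Total RNA of caudal mammary glands was hybridised to Affymetrix arrays. Each deposited value is a log2 expression level of a transcript cluster; RMA, which corrects background, quantile normalizes and summarises probes, was run by the authors in Affymetrix Expression Console, per the submitters' processing notes. Versions, annotation release and build are not given in the sources used here. The value table held MPB, TCS and OIL arrays normalized together: its values lay on average 0.0643 above those of a separate MPB and OIL table on MPB arrays and 0.0645 above on OIL arrays, and against a TCS and OIL table the gaps were -0.0527 on TCS and -0.0524 on OIL arrays. A further 134 value columns of the deposited tables were not used.

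Of 36685 clusters, 18511 had 1 gene symbol in the platform annotation, 575 had several and 17599 were not listed; 18394 matched a RefSeq gene. The cluster of highest mean stood for each of 18166 genes. Differences were fitted with limma 3.58.1 in R 4.3.3 (lmFit, eBayes, 2-sided, Benjamini-Hochberg over all genes, threshold 0.05) on the 29 arrays of 6 groups with a batch term, and figures drawn with matplotlib 3.10.9. The fit was tested on simulated data with known differences and independent noise for each gene. The simulation held no array set apart like MPB array 1, so it cannot show how the fit handles one. The number of arrays limits the precision. Replicates were separate pups, 1 per litter, numbered in accession order.

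The members and the 51 lists (17 cell type, 34 pathway, 984 entries, 876 measured, 831 distinct measured genes) were chosen with earlier results of these data known. A list score is the mean of its centred members. Genes were named by rule: 12 per direction by smallest p where none passed, the defining genes of cell type lists, and up to 4 members of highest mean per list described; all others, such as Pgr, Esr1, Egfr, Akr1c14, Thra, Thrb, Rarg, Vdr, Stra6, Serpinb5, Cldn8 and Slc6a14, were picked after their values were seen. Alternatives changed the arrays fitted, batch term, gene filter, cluster choice, eBayes options, array weights, centring, score covariates and deposited table, and left out each array.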

Additional observations from a re-analysis of the deposited data

Results flagged for a closer look

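Dixon's test was run on 310 sets of MPB or TCS array values drawn from those reported above, and 30 had an array far from the nearest other of its group. The test would mark about 1 set in 20 if sets were independent and not selected. These sets share the same 9 arrays, and some genes were picked after their values were seen, so the count cannot be set against that share. Of the 30, 18 were of MPB array 1. MPB array 1 lay apart on the T and NK cell score (-2.07) and the B cell and lymph node score (-1.77). It was also the lowest MPB array for the immune and lymph node genes Cd3d at 6.0, Cd3g at 5.36, Tcf7 at 8.61, Cd4 at 9.34, Cd37 at 7.28, Cr2 at 5.42, Jchain at 6.03, Glycam1 at 6.52, Ccl21 at 10.01, RT1-Da at 9.98 and Lyz2 at 10.42. The same array was the highest for Tagln at 11.89, Mylk at 9.73, Ghr at 12.26 and Ces2g at 8.85, and the lowest for Notch2 at 10.48. MPB array 3 was the lowest of its group for Krt18 at 8.2.

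TCS array 4, the only TCS array of batch 2, lay apart for Yipf3 at 9.21, Glycam1 at 12.32, Cd74 at 13.04, Csf1r at 10.54, Thy1 at 9.81, Rxra at 10.05, Gsto1 at 9.32, Fgf7 at 10.74 and Spry1 at 8.92. For Yipf3, Rxra, Gsto1, Fgf7 and Spry1 every MPB, TCS and OIL array of batch 2 after PND 1-20 lay on that side of every such array of batch 1, with Yipf3 at 9.48, 9.68, 9.21, 9.34 and 9.38 in batch 2. For Glycam1, Cd74, Csf1r and Thy1 the batches overlapped. TCS array 2 was the highest of its group for Hoxa10 at 5.88 and C1qtnf6 at 9.59. No gene's effect differed between exposure windows past the threshold.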

How the results depend on the processing

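The count of 0 genes past the threshold between MPB and TCS after PND 1-20 held under 12 other settings (smallest adjusted p 0.13 to 1) and with each of the 9 arrays left out (0.696 to 1). The count with an unadjusted p under 0.05, 565, was 1045 with only the groups compared, 265 with no batch term, 1093 in batch 1 alone, 355 in batch 2 alone, 249 among genes above the median gene mean, 1213 over all transcript clusters, 1289 with array weights and 1158 with only groups of the same window. It ran from 271 without MPB replicate 1 to 1006 without MPB replicate 3, and was 302 without TCS replicate 1. Groups that did not overlap, 164 genes, came to 1970 in batch 1 alone, 11722 in batch 2 alone (2 arrays against 1), and 238 to 730 with an array left out. TCS minus OIL had 138 genes past the threshold with array weights, and 0 to 1 with an array left out (1 without OIL replicate 4). MPB minus TCS after GD 1-20 had 2769 in batch 1 alone and 2256 with array weights. In batch 2 alone LOC690359 (0.14) and Il2 (0.0182) changed sign; the other 22 named genes kept theirs in every setting run. Causes were not tested. MPB minus OIL and the window difference had 0 calls throughout, and all 5 comparisons had 0 without the 5 arrays poor in T and NK cell markers, a setting added after seeing the data. No deposited table other than the value table held both MPB and TCS, so that alternative was not run between them. No paired analysis was possible because the labels pair no animals across groups: each pup came from its own litter, and replicate numbers only follow accession order. One TCS array in batch 2 limits the within-batch values, and dim genes limit what array values can show.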
